A study of Homo sapiens with 6 samples.

Results

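The BCL2 family regulates the mitochondrial pathway of apoptosis, and 10 of its genes were followed in 22Rv1-ABHD5 cells cultured with or without doxycycline (Dox). The genes were BCL2, BCL2L1, BCL2L2, MCL1, BAK1, BCL2L11, BAD, BIK, BMF and HRK. They were taken by symbol from the table of counts, which lists 27470 genes, and each of the 10 was found there and passed the filter on low counts.

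22Rv1 is a human castration-resistant prostate cancer cell line. All libraries come from 22Rv1 cells infected with the pInducer20-ABHD5 lentivirus and selected with G418, so the libraries without Dox carry the transgene as well. The methods describe selection and name no cloning step. The 3 libraries labelled control come from cells without Dox, and the 3 libraries labelled as overexpressing ABHD5 come from cells with Dox, both cultured for 48 h. ABHD5 is the coactivator of ATGL, the enzyme that starts the breakdown of triglycerides. Because parent 22Rv1 cells given Dox are not analysed here, an effect of Dox itself on RNA cannot be told apart from one of ABHD5. For growth, the paper reports a negligible effect of Dox on the parent cells, with the data not shown. The labels do not say whether the replicates were separate cultures, and the p-values measure only the spread between these libraries, which may be technical.

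In the mitochondrial pathway, the effector proteins BAK and BAX open the outer membrane of the mitochondrion and release cytochrome c, which starts the assembly of the apoptosome and the activation of caspases. The anti-apoptotic proteins BCL2, BCL-XL, BCL-w and MCL1 hold the effectors and their activators in check. BH3-only proteins, among them BIM, BAD, BIK, BMF and HRK, sense stress and either bind the anti-apoptotic proteins or engage the effectors directly. Many of these genes also give several protein isoforms, and counts per gene do not separate them. The study tested apoptosis at the protein level by cleavage of PARP-1, which is not analysed here.

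The libraries held 3394672 to 7271771 counts on genes. The kit reads the 3ʹ end of polyadenylated transcripts, and levels below are in CPM, counts per 1000000 after TMM normalization (a scaling that assumes most genes to be equal between libraries). ABHD5, on chromosome 3 of hg38 from 43690108 to 43734371, had 61.4 ± 3.0 CPM (SD, n = 3) without Dox and 116.1 ± 21.3 CPM (SD, n = 3) with Dox. Changes are given as log2 fold changes, Dox over no Dox, and adjusted p-values come from the quasi-likelihood test of edgeR with the Benjamini-Hochberg adjustment over all genes tested. For ABHD5 the change was 0.91 (SE 0.15, edgeR adjusted p = 0.000198). Counts per gene do not separate the transgene from the cells' own ABHD5. Whether reads from the 3ʹ end of the transgene message were counted as ABHD5 is not given in the sources used here. The change may therefore not measure the full induction. Of 12233 genes tested, 25.5% had an adjusted p under 0.05, with 11.9% higher and 13.7% lower with Dox. The 9 prostate luminal markers were all tested, with a summed level of 1442 to 1517 CPM without Dox and 898 to 991 CPM with Dox, and 5 of them were lower. All 3 basal markers were at 3 counts or fewer in each library, 2 of them at 0. Markers of neuroendocrine cells summed to 111 to 146 CPM without Dox and 115 to 146 CPM with Dox. Of these, 2 were tested and 1 was higher. Those of fibroblasts and leukocytes summed to 5.27 to 6.46 CPM and 8.07 to 11.8 CPM, with 1 tested and higher, and the part of these differences in the values below was not tested.

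Of the 10 BCL2 family genes, BCL2L11 alone passed the test, and it was higher with Dox. That is 10% of the genes, against 25.5% of all genes tested. In these bulk samples of one cell line, a shift in the mix of cell states and a change in RNA per cell cannot be told apart. With the threshold at an unadjusted p under 0.05, 5 of the 10 passed, against 36.8% of all genes. All 10 had a log2 fold change above 0, from 0.20 to 0.87 with a median of 0.37, where 51.5% of all genes were above 0 and their median was 0.02. Of 9 other relatives of BCL2 tested (below), 5 were above 0, with a median of 0.03. Among all 43 further apoptosis genes tested, 20 were above 0, with a median of -0.02. The rise of all 10 thus holds for this choice of genes, which was made with earlier results of these data known. In 4 of the 10 (BCL2L11, BAK1, BCL2L2 and HRK) each library with Dox was above each library without Dox, against 19.0% of all genes. None of the 10 was below in every library, against 20.5% of all genes, and 39.5% of all genes did not overlap in one or the other direction.

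**Figure D1:**
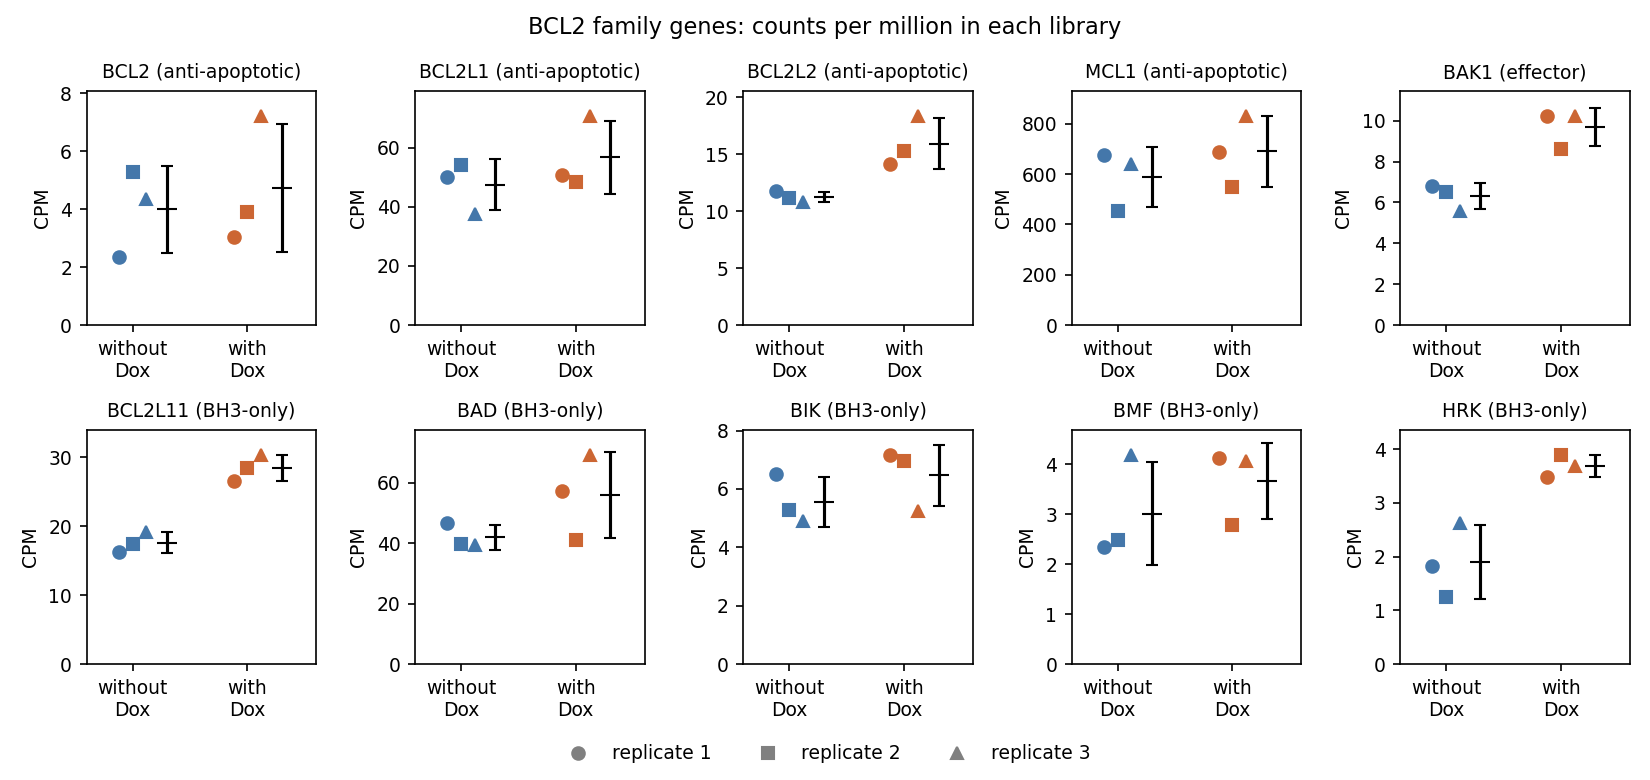
Level (CPM, linear axis from 0) of the 10 genes in each library, without Dox in blue and with Dox in orange, with one marker shape for each replicate number; black bars give the mean and SD of 3 libraries. BCL2L11 lay at 16.2 to 19.2 CPM without Dox and at 26.5 to 30.3 CPM with Dox, while MCL1, BCL2L1, BCL2, BAD, BIK and BMF overlapped between the conditions.

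The sequences before the transcription start are shown for BCL2L11, the gene that passed, and for BAK1 and HRK, which did not overlap between the conditions either. BCL2L2, MCL1 and BIK have no entry in the sequence table used. Each run holds the 250 bases before the start that RefSeq gives on GRCh38.p14, 5ʹ to 3ʹ on the strand of the gene. Capitals mark exact matches on either strand to TGTTTAC (the core of the FOXO binding sequence), CACGTG (E-box), GGGCGG (GC box), CCAAT and TATAAA, and none of the matches shown overlap each other. The positions are chr2:111120664-111120913 on the plus strand for BCL2L11, chr6:33580277-33580526 on the minus strand for BAK1 and chr12:116881442-116881691 on the minus strand for HRK.
BCL2L11: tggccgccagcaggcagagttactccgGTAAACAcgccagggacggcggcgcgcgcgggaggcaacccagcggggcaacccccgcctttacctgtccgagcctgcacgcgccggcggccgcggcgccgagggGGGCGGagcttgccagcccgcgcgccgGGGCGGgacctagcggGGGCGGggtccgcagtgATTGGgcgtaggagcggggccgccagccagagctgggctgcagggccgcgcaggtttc
BAK1: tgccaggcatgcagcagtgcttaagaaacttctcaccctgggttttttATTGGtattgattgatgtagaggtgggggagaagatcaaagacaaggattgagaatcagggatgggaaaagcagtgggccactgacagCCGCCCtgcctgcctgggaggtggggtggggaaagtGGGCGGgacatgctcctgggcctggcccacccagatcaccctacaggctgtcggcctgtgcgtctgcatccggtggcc
HRK: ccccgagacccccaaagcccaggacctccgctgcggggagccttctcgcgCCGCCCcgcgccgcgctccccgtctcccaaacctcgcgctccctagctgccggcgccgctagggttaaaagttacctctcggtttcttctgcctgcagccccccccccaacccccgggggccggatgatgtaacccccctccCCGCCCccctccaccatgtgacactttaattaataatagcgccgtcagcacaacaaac

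The BCL2L11 window held GTAAACA, the reverse complement of TGTTTAC, beginning 223 bases before the start. Such a match was in 2.98% of 35116 windows of the same length and in none of the other 9 windows of the 7 genes that have an entry. At that share, 9 windows are too few to set BCL2L11 apart from the other genes. The windows of BAD also overlap each other, and that of BCL2 holds 250 exon bases of its own gene. The BCL2L11 window further held 3 GC boxes and 1 CCAAT match on the opposite strand (written ATTGG). The BAK1 window held 2 GC boxes and 1 ATTGG, and the HRK window held 2 GC boxes. GC boxes were in 42.6% and CCAAT matches in 32.0% of all windows, while CACGTG was in 6.34% and TATAAA in 10.7%. In the GENCODE positions the BCL2L11 window lies inside the span of the gene, which begins at 111119378. That window holds 0 exon bases of its own gene, and the BAK1 window holds 17. A match describes letters and is no measure of binding, and 3ʹ reads do not show which start was used.

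BCL2L11 encodes BIM, a BH3-only protein that binds all of the main anti-apoptotic members and can also activate BAX and BAK. Its gene spans 111119378 to 111168444 on chromosome 2 of hg38. Its level was 16.2, 17.4 and 19.2 CPM in replicates 1, 2 and 3 without Dox and 26.5, 28.4 and 30.3 CPM with Dox. The lowest library with Dox was above the highest without Dox. The fold change was 1.61 (95% interval 1.25 to 2.08), a log2 fold change of 0.69 (SE 0.17, edgeR adjusted p = 0.00728). Leaving out any single library gave 0.62 to 0.76 and BCL2L11 stayed past the threshold (largest edgeR adjusted p 0.0474). These values rest on 56 to 110 counts without Dox and 102 to 231 with Dox. In the annotation, 727 of its 6742 exon bases also lie in exons of MIR4435-2HG on the opposite strand, which had 1 to 8 counts, and 0 of them lie within the last 500 bases at its 3ʹ end.

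HRK, BAD, BMF and BIK, the other BH3-only genes, did not pass the test. HRK, on chromosome 12 from 116856144 to 116881441, encodes Harakiri, which binds BCL2 and BCL-XL. It had 1.83, 1.24 and 2.62 CPM without Dox and 3.48, 3.90 and 3.68 CPM with Dox. The conditions did not overlap, but the counts behind them were few, 4 to 15 without Dox and 14 to 28 with Dox. The log2 fold change of 0.87 was the largest of the 10 genes and had a SE of 0.39 (edgeR adjusted p = 0.115), with an interval from 1.03-fold to 3.25-fold.

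BAD, whose protein links growth factor signalling to apoptosis because its phosphorylation by kinases such as Akt keeps it away from BCL-XL, lies on chromosome 11 from 64269830 to 64284704. Without Dox it had 46.8, 39.7 and 39.3 CPM, and with Dox 57.2, 41.2 and 69.2 CPM. Replicate 2 with Dox lay below replicate 1 without Dox, and the spread with Dox, 14.1 CPM (SD, n = 3), was above that without Dox, 4.20 CPM (SD, n = 3). Its log2 fold change was 0.43 (SE 0.17, edgeR adjusted p = 0.0793). It was 0.24 without replicate 3 with Dox (edgeR adjusted p = 0.347). Without replicate 2 with Dox it was 0.60 and passed (edgeR adjusted p = 0.0078). Of the last 500 bases at the 3ʹ end of BAD, 268 lie in exons shared with GPR137 on the opposite strand, which had 55 to 174 counts, and reads there cannot be told apart without strand.

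BMF, which encodes a BH3-only protein held at the actin cytoskeleton, lies on chromosome 15 from 40087890 to 40108892 and had 2.35, 2.48 and 4.19 CPM without Dox and 4.13, 2.78 and 4.07 CPM with Dox. Replicate 3 without Dox was the highest of its 6 libraries. BIK, on chromosome 22 from 43110750 to 43129712, encodes a BH3-only protein of the endoplasmic reticulum and had 6.53, 5.27 and 4.89 CPM without Dox and 7.18, 6.96 and 5.25 CPM with Dox. Both overlapped between the conditions. The log2 fold change was 0.26 (SE 0.37, edgeR adjusted p = 0.661) for BMF and 0.20 (SE 0.30, edgeR adjusted p = 0.666) for BIK. The interval of the fold change ran from 0.694 to 2.05 for BMF and from 0.746 to 1.77 for BIK, and both intervals hold falls as well as rises.

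BAK1 encodes BAK, the effector that sits in the outer membrane of the mitochondrion before the death signal arrives. It lies on chromosome 6 from 33572547 to 33580293. Its level was 6.79, 6.51 and 5.59 CPM without Dox and 10.2, 8.63 and 10.2 CPM with Dox. Every library with Dox was above every library without Dox, with 21 to 32 counts without Dox and 31 to 78 with Dox. The log2 fold change of 0.64 (SE 0.26) missed the threshold over all genes (edgeR adjusted p = 0.0737), and its interval ran from 1.08-fold to 2.27-fold.

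Among the 4 anti-apoptotic genes, none passed the test. BCL2L2, which encodes BCL-w, lies on chromosome 14 from 23298790 to 23311751. It had 11.8, 11.2 and 10.8 CPM without Dox and 14.1, 15.3 and 18.4 CPM with Dox, with no overlap. The log2 fold change was 0.52 (SE 0.21, edgeR adjusted p = 0.0812). Its exons share 815 of 4840 bases with the read-through gene BCL2L2-PABPN1 on the same strand, which is listed at 0 counts in all 6 libraries, and how reads on shared bases were assigned is not given in the sources used here.

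MCL1, a short-lived anti-apoptotic protein on which many cancer cells depend, is encoded on chromosome 1 from 150560895 to 150579738. It had 675, 452 and 639 CPM without Dox and 689, 550 and 832 CPM with Dox, and its 1458 to 6334 counts make counting error small beside the spread between replicates. Replicate 2 was the lowest in both conditions. Of the last 500 bases at the 3ʹ end of MCL1, 328 lie in exons shared with ADAMTSL4-AS1 on the same strand, which had 2 to 6 counts, and how reads there were assigned is not given in the sources used here, which also touches the ratios to MCL1 below. BCL2L1, which encodes BCL-XL and by another splice form BCL-XS, lies on chromosome 20 from 31664452 to 31723989. It had 50.2, 54.3 and 37.7 CPM without Dox and 50.9, 48.4 and 70.8 CPM with Dox, so 2 of the libraries with Dox lay inside the range without Dox. Of its 4197 exon bases, 1735 also lie in exons of ABALON on the opposite strand, which had 8 to 28 counts. The log2 fold change was 0.23 (SE 0.17) for MCL1 and 0.28 (SE 0.18) for BCL2L1, with edgeR adjusted p of 0.338 and 0.256. The intervals, from 0.920-fold to 1.49-fold and from 0.943-fold to 1.57-fold respectively, hold larger rises than falls for both genes.

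BCL2, the founding member, lies on chromosome 18 from 63123346 to 63320128 and was counted 9 to 25 times without Dox and 14 to 55 times with Dox. Its level was 2.35, 5.27 and 4.36 CPM without Dox and 3.04, 3.90 and 7.22 CPM with Dox. Only replicate 3 with Dox lay above the range without Dox. The log2 fold change of 0.31 (SE 0.39, edgeR adjusted p = 0.604) turned to -0.21 without that library.

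**Figure D2:**
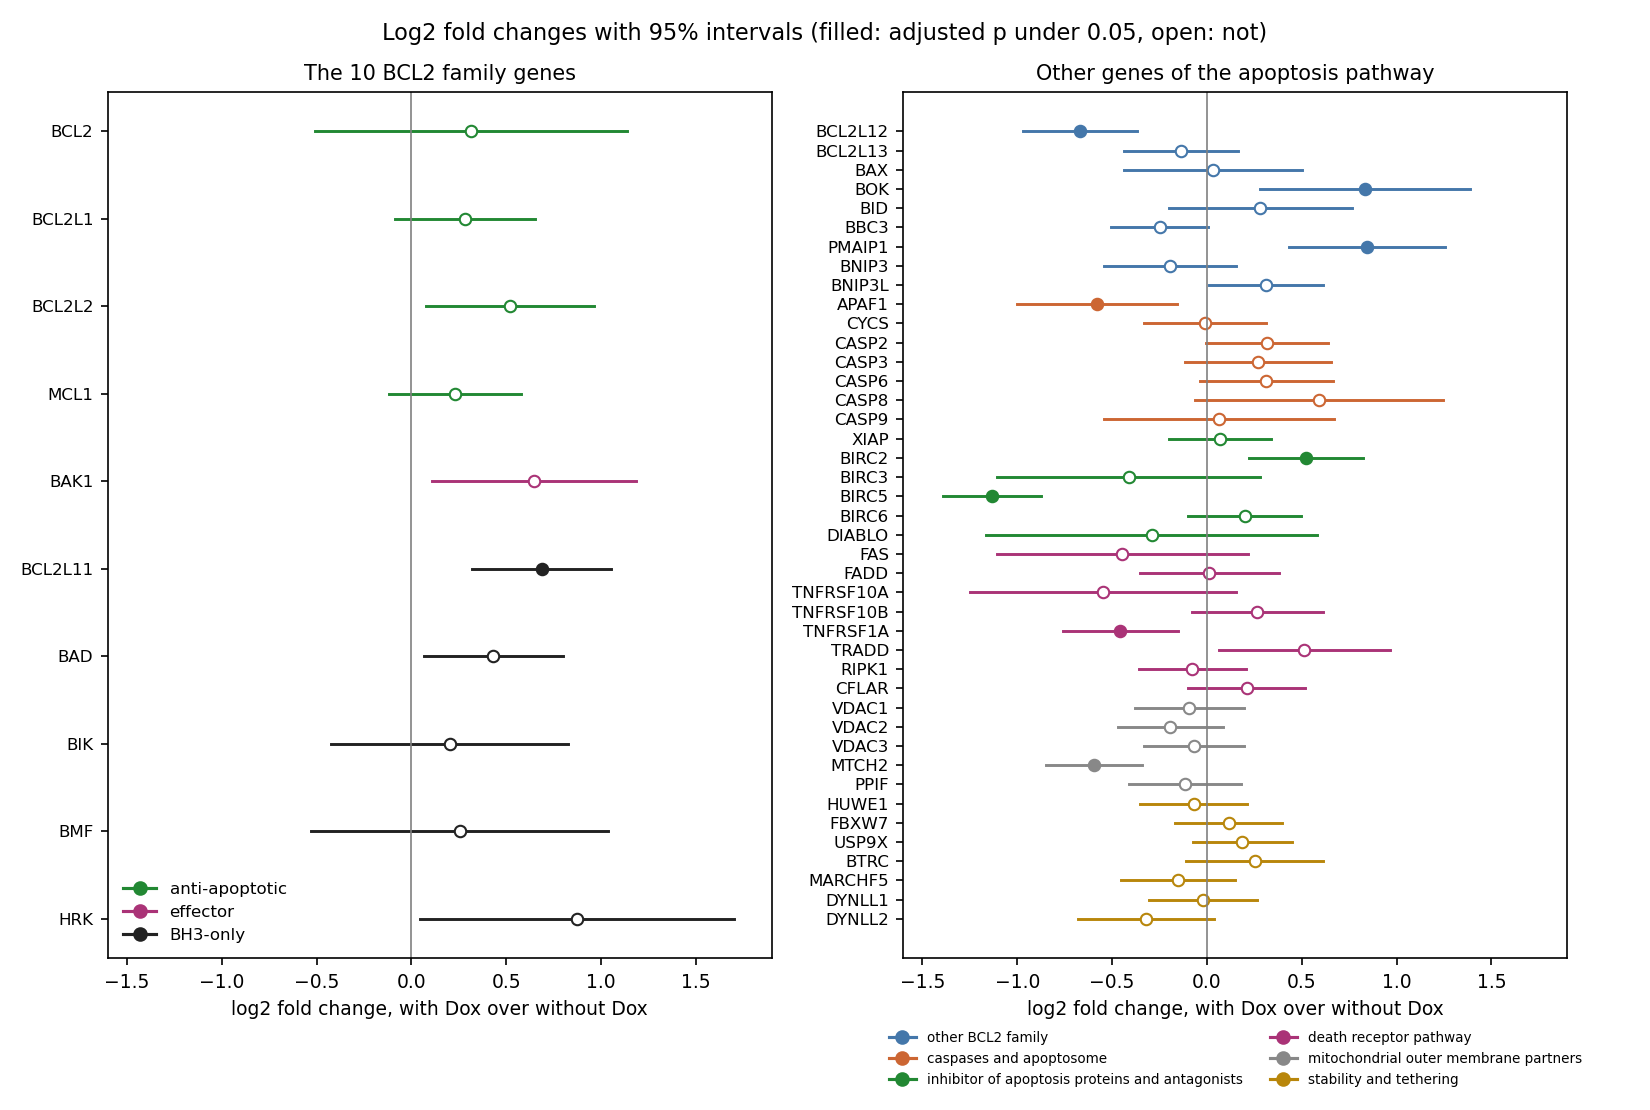
Log2 fold changes with Dox over without Dox (points) and their 95% intervals (lines) for the 10 genes, coloured by role, and for other genes of the apoptosis pathway, coloured by list; filled points have an adjusted p under 0.05. The 10 genes lie between 0.20 and 0.87 with BCL2L11 filled, and the other genes run from -1.13 for BIRC5 to 0.85 for PMAIP1.

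Replicate 3 with Dox, the library with the most counts, was the highest of the libraries with Dox for 7 of the 10 genes, and for 38.4% of all genes tested. Without it, the log2 fold changes of BCL2L1 and MCL1 came to 0.08 and 0.07, the median of the 10 genes went from 0.37 to 0.30, and 9 of the 10 stayed above 0. BCL2L11 was 0.63 (edgeR adjusted p = 0.0245), BAK1 0.60 and HRK 0.87 without this library. Among the libraries with Dox, counted ABHD5 reads were lowest in replicate 3, at 91.7 CPM against 125.9 and 130.8 CPM in replicates 1 and 2. These reads may miss transgene message, so this order need not be that of the induction.

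Changes of this size moved with the scaling between libraries. When only library totals were used, the median over all genes moved from 0.02 to 0.14 on the log2 scale, and of the genes past the threshold 65.7% were higher with Dox in place of 46.4%. Under the same scaling 4 of the 10 genes passed, BCL2L11, BAK1, BCL2L2 and BAD, all higher, against 27.1% of all genes, and the median of the 10 was 0.50. With upper-quartile normalization BCL2L11 and BAD passed, against 25.7% of all genes. In the fits that used all 6 libraries, every one of the 10 genes that could be fitted stayed above 0.

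**Figure D3:**
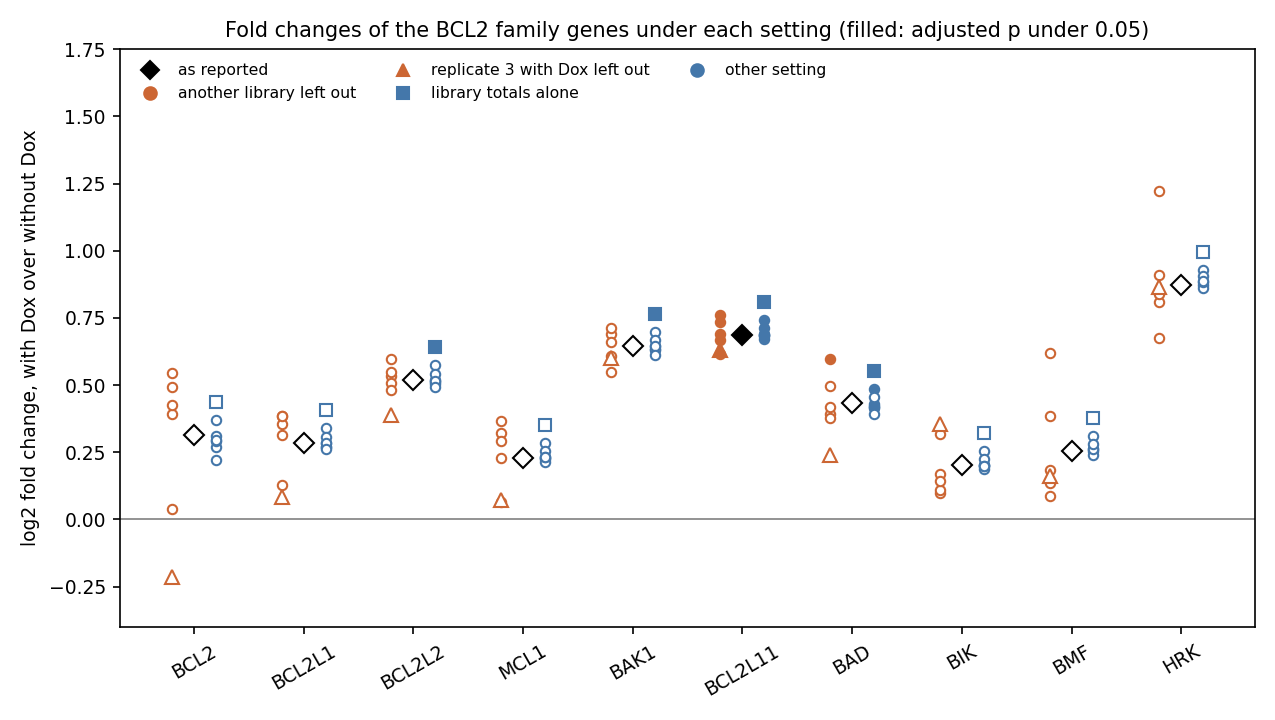
Log2 fold change with Dox over without Dox of each of the 10 genes under the reported setting (black diamonds), with each library left out (orange, the triangle marking replicate 3 with Dox) and under other scalings, filters and tests (blue, the square marking library totals alone); filled symbols have an adjusted p under 0.05. BCL2L11 is filled throughout, from 0.62 to 0.81, and BCL2 runs from -0.21 to 0.54.

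**Figure D4:**
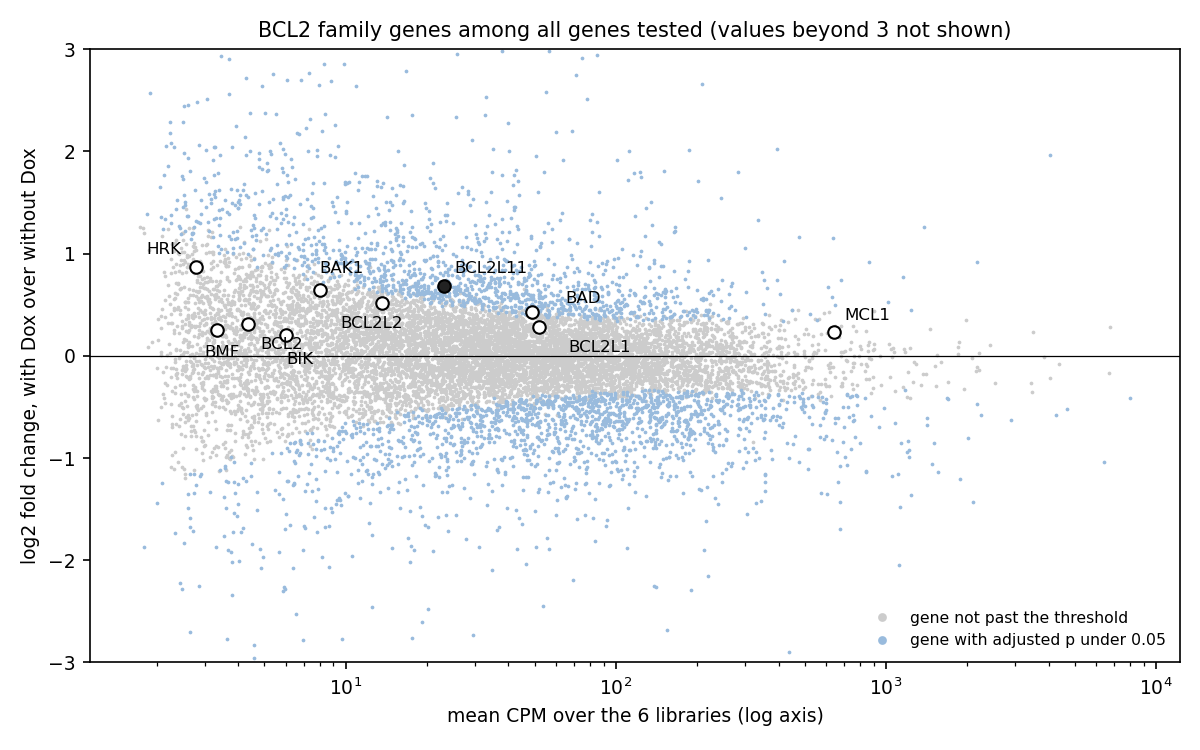
Log2 fold change with Dox over without Dox against the mean CPM of the 6 libraries (log axis) for the 12233 genes tested, in blue where the adjusted p is under 0.05; circles mark the 10 genes, filled where past the threshold, and changes beyond 3 in either direction are not shown. BCL2L11 is the filled circle at 0.69, and HRK, at 0.87 and a lower mean CPM, is open.

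Members can also be set against each other within a library as a ratio of reads, which no scaling between libraries can change. These ratios were chosen after the values of the genes were seen. BCL2L11 had 24.0, 38.4 and 30.04 reads per 1000 reads of MCL1 without Dox and 38.5, 51.6 and 36.5 with Dox, so that replicate 3 with Dox fell below replicate 2 without Dox. Against BCL2L1, its ratio was 323, 320 and 509 without Dox and 521, 586 and 429 with Dox, again with overlap. For BAK1, the ratio to MCL1 was 10.1, 14.4 and 8.74 without Dox and 14.8, 15.7 and 12.3 with Dox, and the ratio to BCL2L1 was 135, 120 and 148 without Dox and 201, 178 and 145 with Dox. An exact permutation test over the libraries gave p = 0.2 (two-sided) for each of the 4 ratios and 0.2 after Benjamini-Hochberg adjustment over the 4. With 3 libraries against 3, the smallest p it allows is 0.1, so it could not have passed 0.05. The 5 BH3-only genes among the 10 together had 99.6, 126 and 101 reads per 1000 reads of the 4 anti-apoptotic genes without Dox and 130, 135 and 121 with Dox, where replicate 3 with Dox lay below replicate 2 without Dox. The direction of this sum depends on the genes taken. With BBC3, PMAIP1 and BID added, chosen after the values were seen, 8 BH3-only genes had 305, 393 and 315 reads per 1000 without Dox and 328, 352 and 279 with Dox, a log2 difference of -0.075 in place of 0.25. BBC3, which encodes PUMA, had more reads in each library than the 5 genes together except in replicate 3 with Dox. It had 118 ± 5.82 CPM without Dox and 99.5 ± 4.99 CPM with Dox (SD, n = 3 each), with no overlap and a log2 fold change of -0.25 (SE 0.12, edgeR adjusted p = 0.146).

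**Figure D5:**
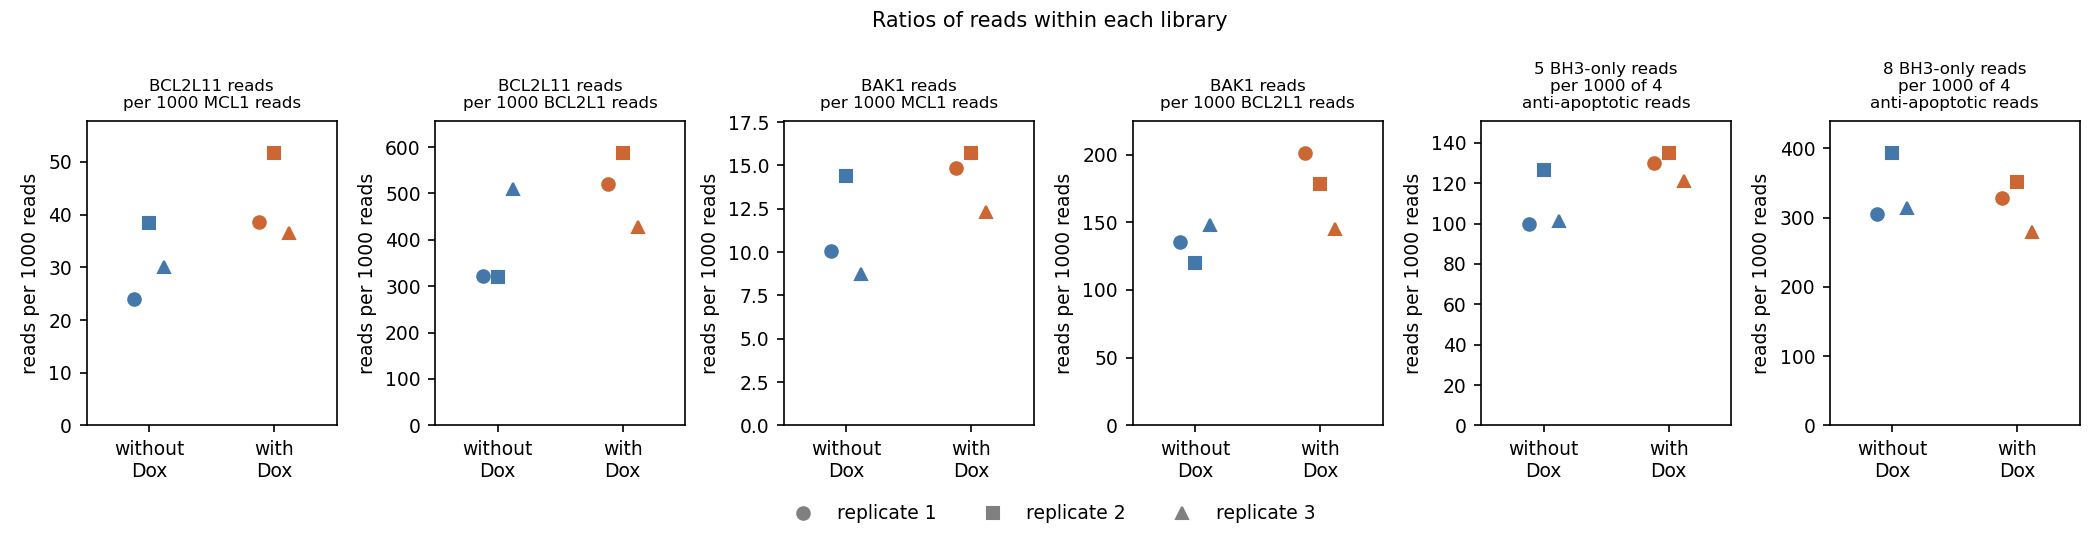
Reads of one gene or group per 1000 reads of another in each library (linear axes from 0), without Dox in blue and with Dox in orange, with one marker shape for each replicate number. In each panel the conditions overlap. The mean with Dox is above the mean without Dox in the first 5 panels (42.2 against 30.8 for BCL2L11 per 1000 MCL1) and below it for the sum of 8 BH3-only genes (320 against 337).

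Beyond the 10 genes, 53 further genes of the apoptosis pathway were followed in 6 lists. Of these, 43 passed the filter on low counts, and 3 were higher and 6 lower with Dox, 20.9% of those tested against 25.5% of all genes. Among 13 other relatives of BCL2, 9 were tested, of which 2 rose and 1 fell (33.3%, against 25.5% of all genes). PMAIP1, which encodes the BH3-only protein NOXA, a partner of MCL1, rose from 17.0 ± 4.58 to 31.1 ± 2.0 CPM (SD, n = 3 each), with a log2 fold change of 0.85 (SE 0.20, edgeR adjusted p = 0.00389). BOK, an effector relative of BAK, rose from 8.02 ± 1.67 to 13.8 ± 3.91 CPM (SD, n = 3 each), with 0.83 (edgeR adjusted p = 0.0267), and fell short of the threshold when replicate 3 with Dox was left out (0.55, edgeR adjusted p = 0.169), without replicate 1 or 3 without Dox, and by DESeq2. BCL2L12 fell by 0.67 on the log2 scale (edgeR adjusted p = 0.00228), from 172 ± 23.9 to 108 ± 16.8 CPM (SD, n = 3 each). BAX, the other main effector, given here after its value was seen, had a log2 fold change of 0.03 with an interval from -0.44 to 0.50, and -0.32 without replicate 3 with Dox.

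Of the 10 genes of caspases and the apoptosome, 8 were tested. APAF1, the scaffold of the apoptosome, had 35.1 ± 6.96 CPM without Dox and 23.9 ± 5.44 CPM with Dox (SD, n = 3 each), with a log2 change of -0.58 (edgeR adjusted p = 0.0420). It overlapped between the conditions. Of 14 alternatives, it stayed past the threshold in 5. It fell short of it without replicate 2 or 3 without Dox and without replicate 1 or 3 with Dox, the last at -0.38.

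Among 9 inhibitor of apoptosis proteins and their antagonists, 6 were tested, of which 1 rose and 1 fell (33.3%, against 25.5% of all genes). BIRC5 encodes survivin, which also serves the chromosomal passenger complex in mitosis, and it fell to 118 ± 11.7 CPM from 259 ± 6.41 CPM (SD, n = 3 each), with a log2 change of -1.13 (edgeR adjusted p = 3.05e-06). BIRC2, which encodes the ubiquitin ligase cIAP1, rose from 72.9 ± 11.4 to 104.7 ± 10.6 CPM (SD, n = 3 each), with 0.52 (edgeR adjusted p = 0.0116).

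In the death receptor list, 8 of 9 genes were tested and 1 fell (12.5%, against 13.7% of all genes that were lower). It was TNFRSF1A, the main receptor for TNF, with 95.2 ± 16.3 CPM without Dox and 69.5 ± 6.05 CPM with Dox (SD, n = 3 each) and a log2 fold change of -0.46 (edgeR adjusted p = 0.0264). Without replicate 3 without Dox it was -0.31 and did not pass (edgeR adjusted p = 0.163). Among the 5 partners in the outer membrane of the mitochondrion, MTCH2, the receptor for truncated BID, fell to 300.2 ± 22.3 CPM from 454 ± 11.7 CPM (SD, n = 3 each), with -0.60 (edgeR adjusted p = 0.0014). The 7 genes for stability and tethering of family members, such as the dynein light chain genes for BIM and BMF, were all tested with 0 past the threshold by edgeR's quasi-likelihood test, 0 by DESeq2 and 0 at an unadjusted p under 0.05, against 25.5% of all genes past the threshold by edgeR and 36.8% at the unadjusted p.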

How the data were processed

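Total RNA was extracted with TRIzol from 3 samples without Dox (labelled control) and 3 with Dox (labelled OE, overexpressing ABHD5), taken at 48 h. Libraries were made with a QuantSeq 3ʹ mRNA-seq kit, FWD per the labels and REV in the study's methods, and sequenced on one end. The authors mapped reads to hg38 with STAR. The submitters' processing notes also name CASAVA 1.8.2, FastQC, HTSeq and edgeR, while the gene annotation and whether reads were counted by strand are not given in the sources used here. The deposited table gives the raw counts of the 6 libraries by gene symbol. The deposited files of single libraries hold normalized values, a signal whose method is not stated, and served as an alternative only.

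Rows that name no gene were left out of totals and tests. Reads in no gene came to 32.5% to 34.6% of all counted reads without Dox and 35.6% to 39.5% with Dox, and ambiguous reads to 3.05% to 3.37%. Gene totals ran from 3394672 to 7271771. At 95% confidence, a count of 0 allows a mean of up to about 3 counts. With these totals, 3 counts stand for 0.413 to 0.884 CPM before TMM normalization. This limit covers counting error only, since the reads carry no molecular identifiers. Replicates of a condition differed beyond counting noise (chi-square per degree of freedom 4.07 to 11.3).

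Counts were fitted with edgeR 4.0.16 (R 4.3.3): filterByExpr, TMM, quasi-likelihood test, Benjamini-Hochberg adjustment over all 12233 genes tested, threshold 0.05. Standard errors were taken as the log2 fold change over the root of its F value, and 95% intervals from the fit's degrees of freedom. Alternatives were other scalings, DESeq2 1.42.0, 2 other filters, the replicate number as a block, limma 3.58.1 on log2(normalized value + 1), and each library left out. On simulated counts for 12095 genes the fit recovered 41.8% of 1.5-fold, 82.1% of 2-fold and 97% of 4-fold changes. Far fewer genes were changed in the simulation than passed in these data, so these shares do not measure recovery here. Ratios within a library were tested by an exact permutation test. Positions come from GENCODE on hg38 and sequences from RefSeq on GRCh38.p14, where 7 of the 10 genes had an entry.

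The genes and lists were chosen with earlier results of these data known. Named are ABHD5, the 10 family genes whatever their values and, in each other list, up to 3 genes of lowest adjusted p among those past the threshold, for each direction. One gene that this rule takes is not reported here. No p-value was adjusted over a list alone.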

Additional observations from a re-analysis of the deposited data

How the results depend on the processing

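BCL2L11 stayed past the threshold under all 14 alternatives, with log2 fold changes of 0.62 to 0.81. The number of the 10 family genes past the threshold was 1, and it was 2 with upper-quartile normalization, 4 with library totals alone, 2 with the replicate number as a block, and 1 to 2 with one library left out (2 without replicate 2 with Dox). BAD joined under upper-quartile normalization (0.49), library totals (0.55), the block (0.42, adjusted p = 0.0465, edgeR's quasi-likelihood test) and without replicate 2 with Dox (0.60). Under library totals alone BAK1 (0.77) and BCL2L2 (0.64) passed too. With one library left out, BCL2 ran from -0.21 (replicate 3 with Dox left out) to 0.54, and BAX from -0.32 (the same library) to 0.19, with -0.19 when the control replicate 3 was left out. BAX was -0.012 with the normalized values. The log2 difference of BH3-only reads per anti-apoptotic reads reversed from 0.25 to -0.075 when BBC3, PMAIP1 and BID were added, an alternative chosen after seeing the data. The cause of these changes was not tested.

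Replicate numbers appear in both conditions, and deviations from the condition means correlated at -0.00955, 0.226 and 0.0855 for numbers 1, 2 and 3. Pairs of unlike numbers gave -0.169 to 0.105. Whether libraries of one number share more than the number was not tested. The block gave 3537 genes past the threshold against 3125 without it. DESeq2 gave 2632 and leaving out one library 2181 to 3112. The filter of at least 10 counts in every library dropped BCL2, BMF and HRK. BIRC2 fell short of the threshold with control replicate 2 left out (0.40), and TNFRSF1A did so under library totals and with OE replicate 1 left out. In the simulation, which changed far fewer genes than passed in these data, 41.8% of 1.5-fold changes were recovered. That share does not measure recovery in these data. HRK, BMF and BCL2 rest on fewer counts than most genes of the family.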
